A study of Danio rerio with 9 samples.

Results

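Ribosomal protein genes of larval zebrafish liver were followed here across azithromycin and 7 of its impurities. The genes were chosen by their listing: every gene that at least 1 of the 8 compound tables listed as changed in the KEGG pathway for the ribosome became a member. This gave 37 members among 1154 genes that were listed in any pathway of any table, and 33.0% of the 112 background genes of the pathway. The share of all background genes listed in any table was not counted. By gene symbol, 20 members encode proteins of the large subunit of the cytosolic ribosome, 14 encode proteins of its small subunit, and 3 encode proteins of the large subunit of the mitochondrial ribosome. No member belonged to the mitochondrial small subunit. Being listed, in either direction, is what chose the members, and each condition has 1 library. The listing and its direction are therefore given as descriptions with no test.

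Wild-type AB larvae at 3 dpf were kept for 72 h in 2 mM of azithromycin, of 1 of the impurities F, I, J, L, Q, R and S, or in DMSO as the control, and livers were dissected for total RNA at 6 dpf. The study asked how azithromycin impurities compare with azithromycin in their effect on the liver, and 1 library was made per condition, 9 in all. Each of the 8 tables set a compound against the same DMSO library, so entries of a gene in several tables are not replicates, and an unusual level of a gene in that library would enter all 8 tables. How many larvae were pooled into a library is not given in the sources used here. The tables give for each gene a symbol, an Entrez identifier and a direction, upregulated or downregulated against DMSO, but no level, fold value or read number. The depth behind an entry is therefore unknown, no entry has a replicate check, and a gene that is not listed cannot be read as unchanged. A fold change threshold of 2 is stated for upregulated genes, and that for downregulated genes is not given in the sources used here. Without fold values, genes just inside and just outside the threshold could not be given.

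Each ribosome is built from a small subunit, which reads the mRNA, and a large subunit, which joins the amino acids and holds the tunnel through which the new peptide leaves. Macrolides such as azithromycin bind in this tunnel of the bacterial ribosome, and the mitochondrial ribosome, which makes a few subunits of the respiratory chain, is of bacterial ancestry. Mutations of ribosomal protein genes in humans cause Diamond-Blackfan anemia, and in mammals some free ribosomal proteins of the large subunit can stabilize p53.

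Azithromycin had the longest list of members. It listed 21 of them, or 18.8% of the pathway's background genes, beside 5.92% of all 18311 background genes on the azithromycin list, a size recovered from the pathway statistics of the table. Of the 21, 10 were upregulated and 11 were downregulated, so 47.6% were upregulated, beside 52.3% of all genes listed in any pathway for azithromycin. The upregulated members included *rpl7a*, *rpl26* and *rplp2*, and the downregulated members included *rps18*, *rps2*, *rpl10* and *mrpl11*. Since the members were chosen by these lists, nothing is read from a member share against the background share, here or for the other compounds. In whole dissected liver, less RNA of a gene per cell and fewer cells that carry it cannot be told apart.

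Impurity J listed 11 members, the fewest of the 8 compounds, or 9.82% of the pathway beside 5.81% of all background genes. The upregulated members for impurity J included *rps25*, *rpl7a*, *rpl15* and *rpl26*, and its 6 downregulated members were *rps2*, *rps12*, *rps18*, *rpl10*, *rpl21* and *mrpl11*. The upregulated share was 45.5%, beside 49.7% of all genes listed for impurity J. Impurity I listed 17 members, or 15.2%, beside 5.92% of all background genes, with 10 upregulated and 7 downregulated. Its upregulated share of 58.8%, beside 52.2% of all listed genes, was the highest among the 8 compounds. Impurity I was also the compound for which *mrpl11* and *rpl10* were both absent from the list and *mrpl4* was upregulated.

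Impurities Q and R had the most downregulated members among the impurities. For impurity Q, 17 members were listed, or 15.2%, beside 5.97% of all background genes, and 6 were upregulated against 11 downregulated. The upregulated share was 35.3%, beside 50.5% of all genes listed for impurity Q. Impurity R listed 16 members, or 14.3%, beside 5.85% of all background genes. Of these 16, 13 were downregulated and 3 were upregulated, namely *rpl7a*, *rpl26* and *mrpl19*. The upregulated share for impurity R was 18.8%, the lowest of the 8, beside 52.3% of all genes listed for it. All 6 of the cytosolic small subunit members listed for impurity R were downregulated. Of 18 skeletal muscle markers, the same 3 were listed for impurities Q and R, all as downregulated, namely *mylpfa*, *mylz3* and *tnnt3b*. The other 6 compounds each listed at least 1 marker as upregulated. However, *tnnt3b* was also downregulated for azithromycin and impurities I and L, and *mylpfa* was also downregulated for impurity S. The part of muscle tissue in the ribosomal entries was not tested.

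Impurities F, L and S, like azithromycin and impurity J, listed upregulated and downregulated members in similar numbers. Impurity L listed 14 members, or 12.5%, beside 5.51% of all background genes, with 6 upregulated and 8 downregulated, an upregulated share of 42.9% beside 51.3% of all listed genes. Impurity S listed 18 members, or 16.1%, beside 5.78% of all background genes, with 9 in each direction, beside an upregulated share of 48.7% over all listed genes. Impurity S was the compound for which *rps2* and *rpl34* were upregulated, although every other table that listed either gene had it downregulated. Impurity F listed 13 members, or 11.6%, beside 5.67% of all background genes, with 6 upregulated and 7 downregulated, a share of 46.2% beside 49.5%.

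**Figure D1:**
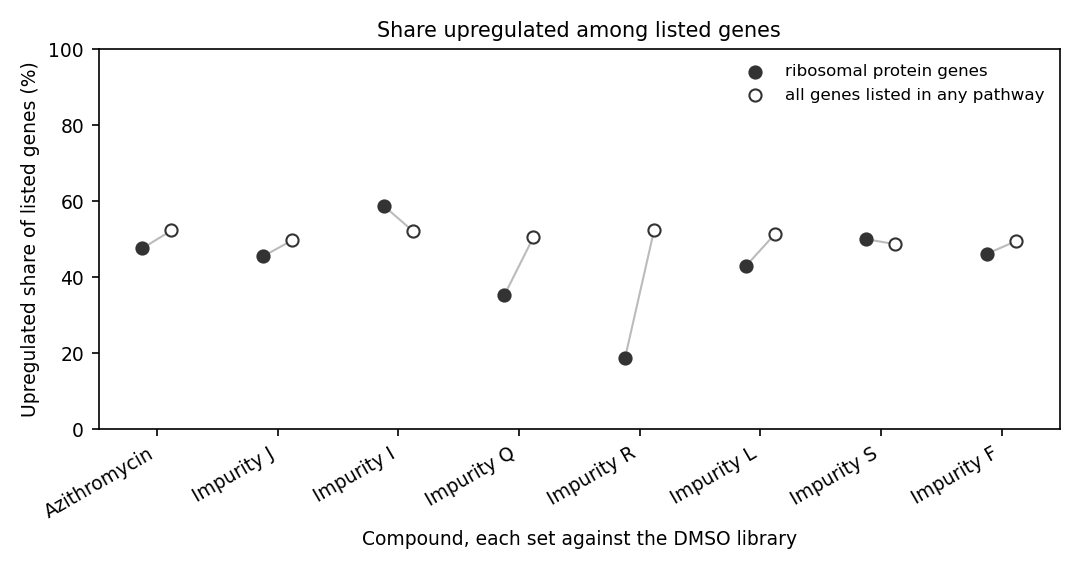
Upregulated share of listed genes, in percent, for each compound against the DMSO library, with ribosomal protein genes as filled points and all genes listed in any pathway as open points. The ribosomal share lies between 18.8% for impurity R and 58.8% for impurity I, and the share of all listed genes lies between 48.7% and 52.3%. Each point rests on 1 library per condition, so no error bar is drawn.

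Over the 8 tables, the members had 127 entries, 55 upregulated and 72 downregulated. The upregulated share was 43.3%, beside 50.8% of the 3265 entries of all listed genes. The large and small subunits of the cytosolic ribosome did not have the same balance of entries. Large subunit members had 33 upregulated and 32 downregulated entries, a share of 50.8%. Small subunit members had 19 upregulated and 33 downregulated entries, a share of 36.5%. Of these 33, *rps18* gave 8 and *rps2* gave 7. By gene, 5 small subunit members were only upregulated, 5 only downregulated and 4 both, against 9, 8 and 3 of the large subunit. With each table left out in turn, the upregulated share of entries ranged from 48.1% to 54.4% for the large subunit. For the small subunit it ranged from 32.6% to 41.3%. These ranges are no check of a difference between the subunits. Both *rps18* and *rps2* are listed in all 8 tables, so they weigh on every range, and the tables share the DMSO library. The 3 mitochondrial members had 3 upregulated and 7 downregulated entries, and all 7 of the downregulated entries came from *mrpl11*. The differences in direction between subunits were not tested, because each condition has 1 library and all entries share the DMSO library.

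**Figure D2:**
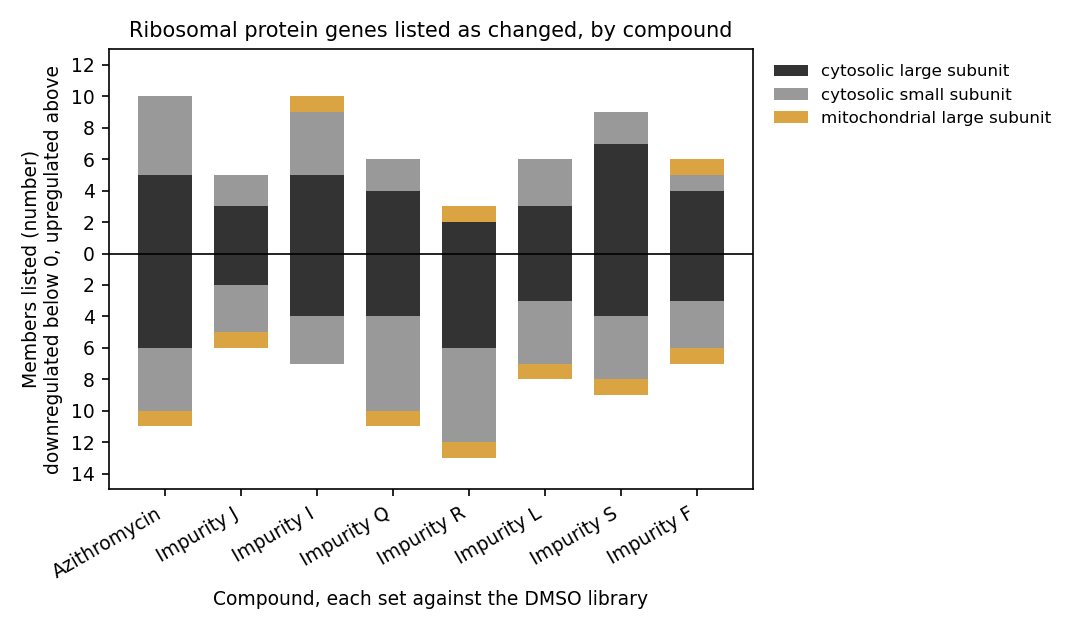
Number of ribosomal protein genes listed for each compound against the DMSO library, upregulated above 0 and downregulated below 0, shaded by ribosomal subunit. Impurity R has 13 downregulated and 3 upregulated members, and the upregulated members of impurity S include 7 of the cytosolic large subunit and 2 of the small subunit.

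Most members kept to a single direction wherever they were listed, although many were listed in few tables. Of the 37 members, 16 were upregulated in every table that listed them, 14 were downregulated in every such table, and 7 appeared in both directions. This description includes 10 members listed for 1 compound alone, which could show no second direction. How many of all 1154 listed genes kept to 1 direction was not counted, and all 8 tables share the DMSO library. Nothing particular to ribosomal protein genes is read from these numbers. The median member was listed in 3 tables, beside a median of 2.0 tables over all 1154 listed genes. Of the members, 8 were listed in at least 6 tables, or 21.6%, beside 168 of all listed genes, or 14.6%.

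**Figure D3:**
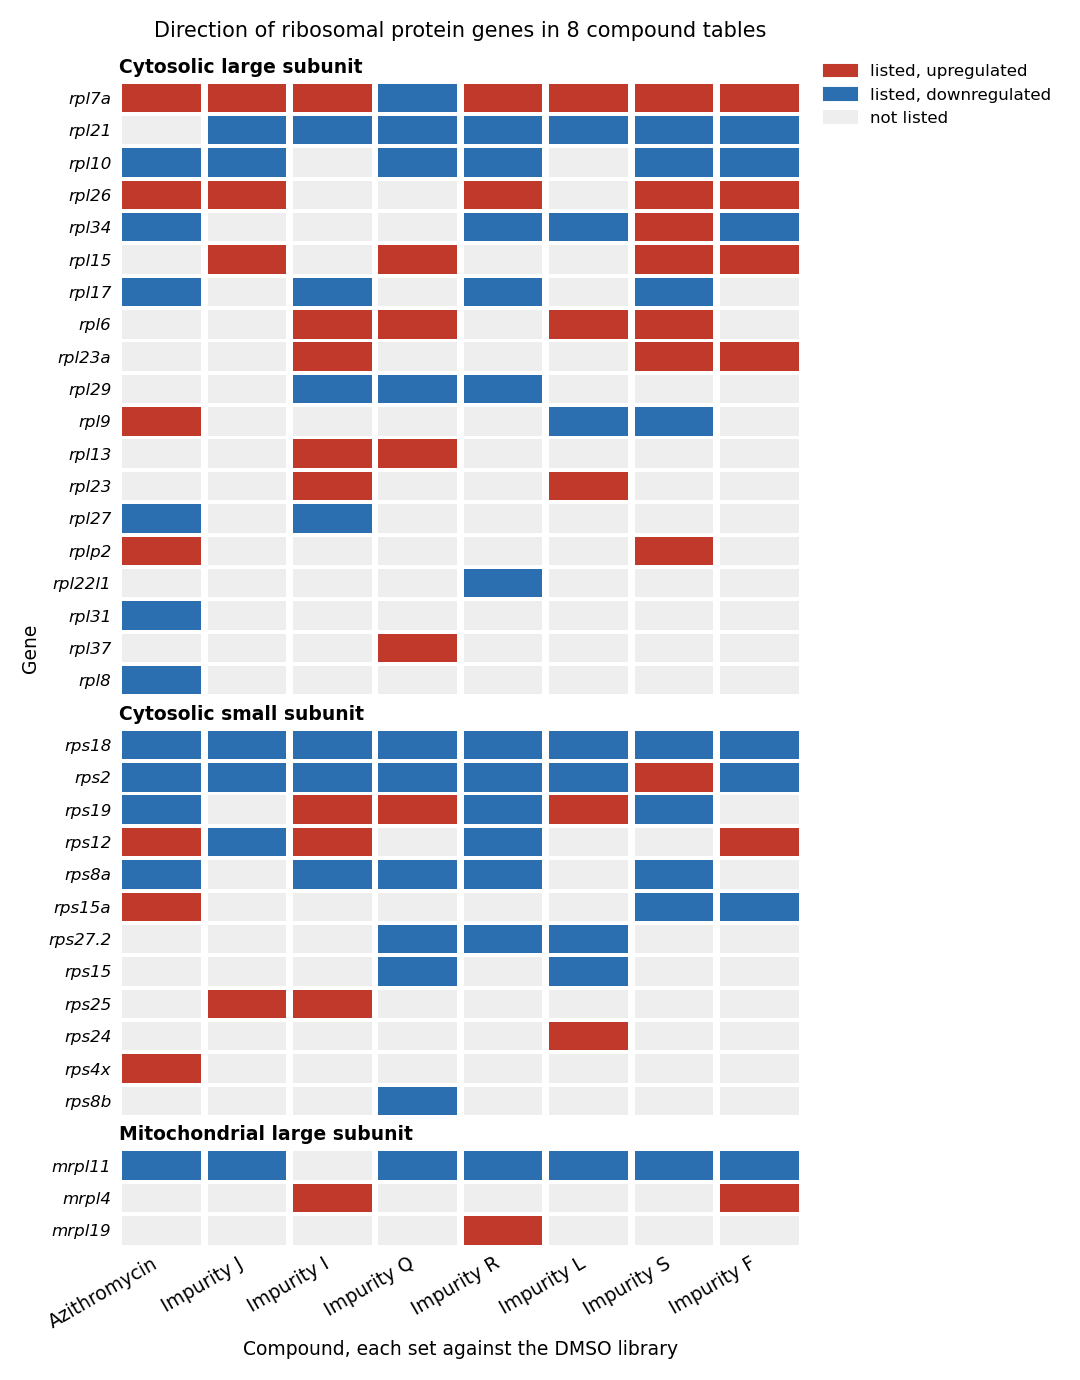
Direction of 34 of the 37 ribosomal protein genes, in rows grouped by subunit and sorted by the number of tables, in each of the 8 compound tables, in columns. Red cells are upregulated and blue cells are downregulated against the DMSO library, and grey cells are not listed. The row of *rps18* is blue in all 8 columns, that of *rps2* in all but impurity S, and that of *rpl7a* is red in all but impurity Q.

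Among small subunit members, *rps18* (Entrez 192300), a protein of the subunit's head, was listed as downregulated for azithromycin and all 7 impurities. It was the single member with 1 direction in all 8 tables. The gene *rps2* (Entrez 406565), whose protein lies at the entrance of the mRNA channel, was also listed in all 8 tables. It was downregulated for azithromycin and impurities F, I, J, L, Q and R, and upregulated for impurity S.

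The gene *rps19* (Entrez 393723), whose human counterpart was the first to be linked to Diamond-Blackfan anemia, was evenly divided. It was downregulated for azithromycin and impurities R and S, upregulated for impurities I, L and Q, and not listed for impurities F and J. Of the other members with both directions in the small subunit, *rps12* (Entrez 337007) was upregulated for azithromycin and impurities F and I and downregulated for impurities J and R. The gene *rps15a* (Entrez 336764) was upregulated for azithromycin and downregulated for impurities F and S.

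The only pair of named paralogs among the members was *rps8a* and *rps8b*. The gene *rps8a* (Entrez 407690) was downregulated for azithromycin and impurities I, Q, R and S. Its paralog *rps8b* (Entrez 100000836) was downregulated for impurity Q alone, and neither paralog was listed for impurities F, J and L. Since the handling of reads that match near-identical genes is not given in the sources used here, reads may be divided between these paralogs, and their separate entries are uncertain. Counting *rps8a* and *rps8b* together would leave the number of tables at 5.

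Further small subunit members were listed in at most 3 tables. The gene *rps27.2*, which encodes a zinc-binding protein, was downregulated for impurities L, Q and R, and *rps15*, of the subunit's head, was downregulated for impurities L and Q. Upregulated entries came from *rps25*, which some viral mRNAs need for their translation in yeast and mammalian cells, for impurities I and J. The gene *rps4x* was upregulated for azithromycin alone, and *rps24*, also a Diamond-Blackfan anemia gene in humans, was upregulated for impurity L alone.

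Among large subunit members, *rpl7a* (Entrez 337010) was listed in all 8 tables, upregulated for azithromycin and impurities F, I, J, L, R and S and downregulated for impurity Q. The gene *rpl21* (Entrez 336568) was downregulated for all 7 impurities and was not listed for azithromycin. It was the single member listed for every impurity but not for azithromycin. The gene *rpl10* (Entrez 336712), whose protein joins the large subunit in a late step of its maturation, was downregulated for azithromycin and impurities F, J, Q, R and S and not listed for impurities I and L. Of these 3 frequently listed large subunit genes, *rpl7a* was thus upregulated beside downregulated *rpl10* and *rpl21* in impurities F, J, R and S.

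Of the large subunit members, 3 had entries in both directions, namely *rpl7a*, *rpl34* and *rpl9*. The gene *rpl34* (Entrez 394097) was downregulated for azithromycin and impurities F, L and R and upregulated for impurity S. The gene *rpl9* (Entrez 336702), whose protein lies near the site where elongation factors act, was upregulated for azithromycin and downregulated for impurities L and S. With *rps2*, *rps12*, *rps15a* and *rps19*, these make up the 7 members of both directions.

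Proteins around the peptide tunnel were not listed in a single direction. The grouping of these genes was made after their directions were seen. The gene *rpl17*, whose protein lines the tunnel, was downregulated for azithromycin and impurities I, R and S. At the tunnel's exit, *rpl26*, whose human counterpart binds p53 mRNA, was upregulated for azithromycin and impurities F, J, R and S, and *rpl23a*, which lies where the signal recognition particle docks, was upregulated for impurities F, I and S. The exit protein *rpl31* was downregulated for azithromycin alone. In impurity S, *rpl17* was therefore downregulated in the same library in which *rpl26* and *rpl23a* were upregulated.

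Other large subunit members kept to 1 direction. The gene *rpl15* was upregulated for impurities F, J, Q and S, and *rpl6* was upregulated for impurities I, L, Q and S. Further upregulated entries were those of *rpl13* for impurities I and Q, *rpl23*, of the face between the subunits, for impurities I and L, and *rplp2*, an acidic protein of the stalk that recruits elongation factors, for azithromycin and impurity S. The gene *rpl29* was downregulated for impurities I, Q and R, and *rpl27* was downregulated for azithromycin and impurity I. Single entries included those of *rpl8*, close to the peptidyl transferase center and downregulated for azithromycin, *rpl37*, upregulated for impurity Q, and *rpl22l1*, a paralog of *rpl22*, downregulated for impurity R.

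Of the mitochondrial members, *mrpl11* (Entrez 436829), of the stalk base of the mitochondrial large subunit, was downregulated for azithromycin and impurities F, J, L, Q, R and S and not listed for impurity I. The gene *mrpl4* was upregulated for impurities F and I, and *mrpl19* was upregulated for impurity R. In impurities F and R, 1 mitochondrial member was thus upregulated and *mrpl11* was downregulated in the same table. By symbol (mrpl or mrps), a further 2 mitochondrial ribosomal protein genes were listed outside the KEGG ribosome pathway. Both were listed for azithromycin, with *mrpl39* upregulated and *mrps31* downregulated. Genes of this ribosome under other symbols are missed by this match. The gene *aurkaip1*, which the match does not cover, stood in the Reactome term for mitochondrial translation and was downregulated for impurity F.

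Azithromycin accounted for 5 of the 10 members listed for 1 compound alone, among them *rps4x*, upregulated, and *rpl8* and *rpl31*, downregulated. Impurities Q and R had 2 each, impurity L had 1, and impurities F, I, J and S had 0. Over all 1154 listed genes, 442 were listed in 1 table alone. How many of the 442 were listed for azithromycin was not counted, so the 5 are not read as particular to ribosomal genes. The azithromycin list of changed genes held 1084 genes, against 1094 for impurity Q and 1009 to 1084 for the other 6 impurities, all on a background of 18311 genes.

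Many well-studied ribosomal proteins were listed in no table. Set beside the protein-coding genes with ribosomal protein symbols in RefSeq, 20 of 49 cytosolic large subunit genes were listed, or 40.8%, and 14 of 38 small subunit genes, or 36.8%. In the mitochondrial ribosome, 4 of 47 large subunit genes were listed, or 8.51%, and 1 of 28 small subunit genes, or 3.57%, counting *mrpl39* and *mrps31*. A gene could be listed only if a pathway of the 3 databases holds it. How many of these RefSeq genes the pathways hold was not counted, nor was the share of all background genes listed in any table. The cytosolic and mitochondrial shares are therefore not compared. Genes listed in no table included *rpl5a*, *rpl5b* and *rpl11*, whose proteins bind Mdm2 in the ribosomal stress response, the stalk genes *rplp0* and *rplp1*, *rps6*, the substrate of S6 kinase, and *rpl22*, *rps27.1*, *rps14* and *rps3*. In gene order, 0 pairs of members lay next to each other in the RefSeq order of protein-coding genes.

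The share of members among the listed genes of other pathways ran from 10.5% to 100%. Beyond the KEGG ribosome pathway, 23 terms held at least 1 member, all in Reactome, and these terms held only 3 distinct sets of members. The same 28 members stood in 15 terms, among them nonsense-mediated decay, SRP-dependent targeting of proteins to the membrane, rRNA processing, cap-dependent initiation and the broad terms gene expression and metabolism of proteins. The same 12 small subunit members stood in 4 terms on initiation complexes and scanning, and *mrpl4* and *mrpl19* stood in 4 mitochondrial and organelle terms. In 4 terms, the 3 on nonsense-mediated decay and that on SRP-dependent targeting, the members were the whole of the listed genes, 28 of 28. In 17 of the 23 terms members made up at least 75% of the listed genes. For rRNA processing they were 28 of 36 listed genes, or 77.8%, and for translation 28 of 33, or 84.8%. The share was lower in mitochondrial translation, its elongation and its termination, 2 of 5 or 40.0% in each, in metabolism of proteins at 23.9%, in gene expression at 21.4%, and in organelle biogenesis and maintenance at 10.5%. All 23 terms were taken because they hold a member. The 7 members with no Reactome term included *rpl22l1*, *rpl23a*, *rpl6*, *rplp2*, *rps27.2* and *mrpl11*.

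Factors that build ribosomes had a balance of entries that differed between the lists used, which share genes. Of 77 ribosome assembly factors, matched by symbol, 10 were listed in any table, with 8 upregulated and 24 downregulated entries. Of the 24, 18 came from *polr1a*, *riok2* and *polr1e*, and of the 8 upregulated entries *nol9* gave 6. The list names *efl1*, another symbol of *eftud1*, so the match missed *eftud1*. Its 8 downregulated entries, given below, are not counted here. By the same match, without *eftud1*, each table listed 3 to 6 of the 77, or 3.90% to 7.79%, beside 5.51% to 5.97% of all background genes. The genes other than members in the Reactome term for rRNA processing, 8 in all, had 13 upregulated and 13 downregulated entries. Of the 13 upregulated, *nol9* and *dhx37* gave 6 each, and of the 13 downregulated *riok2* gave 6. The genes *las1l*, *ltv1*, *nol6*, *nol9*, *pes* and *riok2* are in both this term and the list of 77. The gene *polr1a*, the largest subunit of RNA polymerase I, which transcribes the rRNA precursor, was downregulated for azithromycin and impurities F, I, J, L, Q and R and not listed for impurity S. Another subunit of this polymerase, *polr1e*, was downregulated for impurities F, J, Q, R and S. The kinase gene *riok2*, which acts late in small subunit maturation, was downregulated for azithromycin and impurities F, I, L, Q and R and upregulated for impurity S. As with *rps2* and *rpl34*, impurity S was thus the compound in which *riok2* was upregulated. These genes were put together after their directions were seen. For *rps18*, *rpl10*, *rpl21*, *mrpl11* and *polr1e*, impurity S had the same direction as every other table that listed them. Other compounds also differed alone for a gene, as impurity Q did for *rpl7a* and impurity J for *dhx37*. The gene *nol9*, a kinase of large subunit rRNA processing, was upregulated for impurities F, I, J, L, R and S.

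The remaining assembly factors matched by symbol were listed in 1 or 2 tables. The small subunit assembly factor *ltv1* was downregulated for azithromycin and impurity F. Single downregulated entries were those of *gar1*, of the complex that modifies uridines of rRNA, for impurity J, *las1l*, a partner of *nol9*, for impurity L, *nol6* for impurity R and *pes* for impurity F. The gene *dkc1*, the enzyme of the same complex as *gar1*, was upregulated for impurity L.

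In the KEGG pathway for ribosome biogenesis, 12 of 65 background genes were listed in any table. Since the share of all background genes listed in any table was not counted, nothing is read from this number. They had 12 upregulated and 27 downregulated entries, beside an upregulated share of 50.8% over all listed entries. Of the 27, *eftud1* gave 8, *mdn1* gave 7 and *riok2* gave 6, and of the 12 upregulated entries *ran* gave 7. The genes *dkc1*, *gar1*, *nol6* and *riok2* were also counted among the assembly factors matched by symbol. The gene *eftud1*, a GTPase of the last step of large subunit maturation, was downregulated for all 8 compounds, as was *rps18*. The gene *mdn1*, a large ATPase that releases assembly factors from the large subunit precursor in yeast, was downregulated for all 7 impurities and not listed for azithromycin, as was *rpl21*. The gene *ran*, the GTPase of nuclear transport, was upregulated for azithromycin and impurities F, I, J, L, R and S. The helicase gene *dhx37*, of small subunit rRNA processing, stood in the Reactome term for rRNA processing and was upregulated for azithromycin and impurities F, L, Q, R and S and downregulated for impurity J.

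Translation factors were listed in both directions. Initiation factors were taken as all symbols that start with eif, and elongation factors in part as those that start with eef. Such a match can take in genes of other function. Of the 66 genes taken as initiation factors 9 were listed, with 11 upregulated and 9 downregulated entries. The gene *eif5*, which triggers GTP hydrolysis on the initiation complex, was upregulated for azithromycin and impurities F, R and S and downregulated for impurity L. The cap-binding factor gene *eif4e1c* was downregulated for azithromycin and impurities J and L and upregulated for impurities Q and S. Of 24 elongation factors and partners 2 were listed, *pabpc1a*, a poly(A)-binding protein gene, upregulated for impurities I, J, Q, R and S, and *eef1a1a*, which brings aminoacyl-tRNA to the ribosome, downregulated for impurities F and R. None of the 8 genes of the signal recognition particle and its receptor was listed in any table. Of 14 p53 pathway genes linked to ribosomal stress, 1 was listed, *baxa*, upregulated for impurity Q. The share of all background genes listed in any table was not counted, so nothing is read from these list totals.

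**Figure D4:**
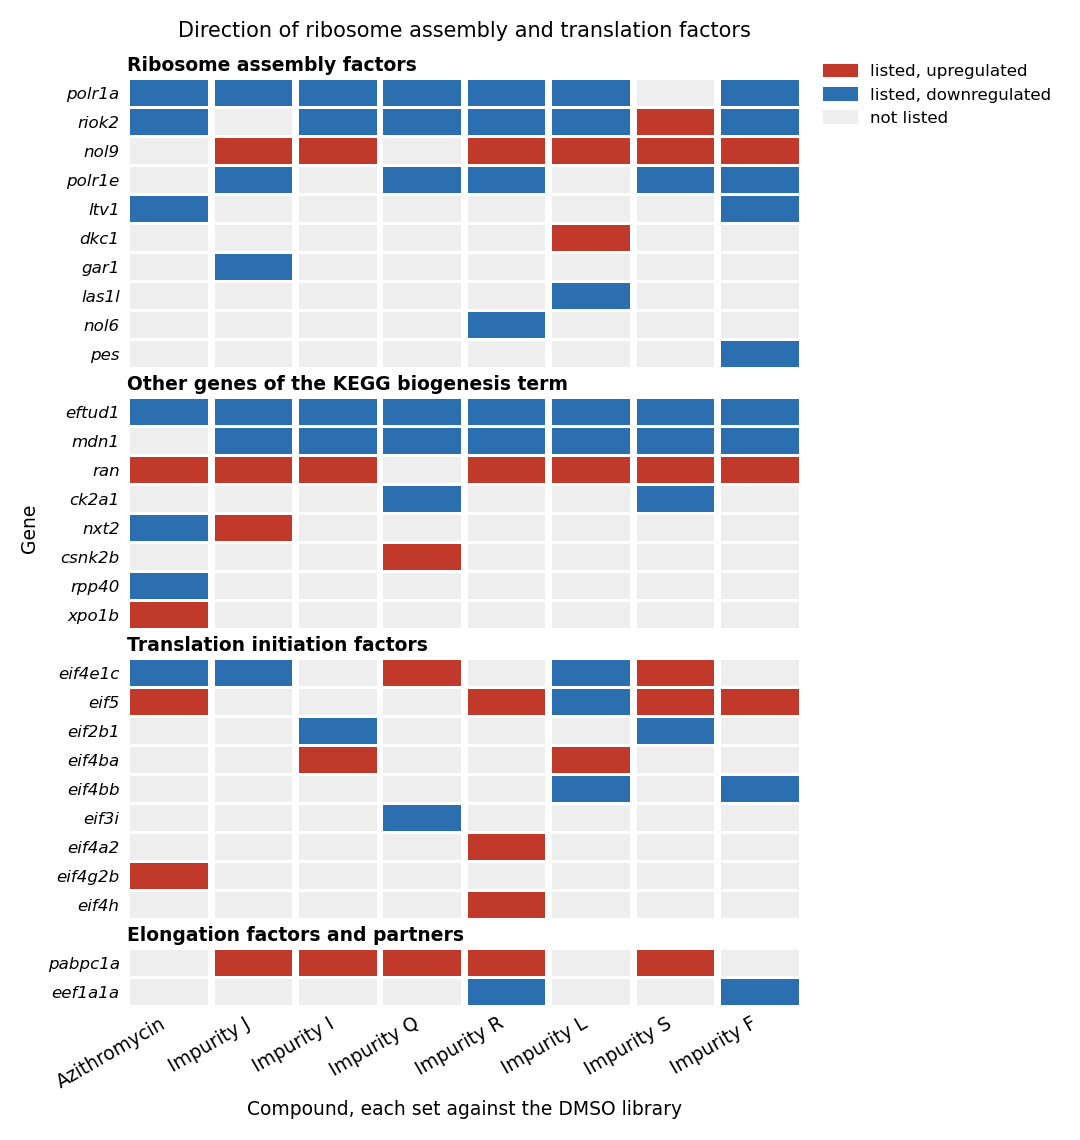
Direction of the listed ribosome assembly factors, other genes of the KEGG ribosome biogenesis pathway, initiation factors and elongation factors, in rows, in each of the 8 compound tables, in columns. Red cells are upregulated and blue cells are downregulated against the DMSO library, and grey cells are not listed. The row of *eftud1* is blue in all 8 columns, and *polr1a* and *mdn1* are blue in 7.

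The tables allow a limited check of the tissue. Of 19 hepatocyte markers 4 were listed, with 12 upregulated and 4 downregulated entries. The fibrinogen gene *fgb* was upregulated for 7 compounds and downregulated for impurity I, and *fga*, also a fibrinogen gene, was upregulated for impurity S. The gene *serpina1*, a secreted protease inhibitor, was upregulated for impurities F, I and Q and downregulated for impurity S. The transferrin gene *tfa* was upregulated for impurity Q and downregulated for azithromycin and impurity J. Of 14 exocrine pancreas markers 2 were listed, *amy2a*, downregulated for impurities I and S, and *cel.1*, downregulated for impurity I. Of 18 skeletal muscle markers 4 were listed, with 12 upregulated and 10 downregulated entries, while none of 11 red blood cell markers and none of 7 intestine markers was listed. Since levels are not part of the tables, the presence or absence of a cell type in a library was not measured here, and the part of these tissues in the ribosomal entries was not tested.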

How the data were processed

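Total RNA from dissected livers of wild-type AB larvae was sequenced from 1 library per condition, 9 in all. Processing was done for the authors by a company; the submitters' processing notes name FastQC, fastp, HISAT2 and the build GRCz11. The counting tool is not given in the sources used here. The methods state a fold change of 2 for upregulated genes, and no test of single genes. A deposited table per compound lists, for each pathway of 3 databases, the changed genes with their direction (up or down, a categorical call of the authors) and the number of listed and background genes. The DMSO library has no table of its own and was not analysed here.

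The tables also hold the pathway p-value of each term, which the authors computed. These deposited p-values are not printed here. They were used to recover the size of each list and its background. The sizes are the 1 combination that gave every p-value of a table under a one-sided Fisher test. In the form of the test that fitted, the listed genes are added to the background. The search was tested on simulated tables in which the listed genes are part of the background, so the fitted form was not simulated. The search gave list sizes from 1009 to 1094 genes on a background of 18311.

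Members were the 37 distinct Entrez identifiers in the KEGG ribosome term of any table. All 37 had the same symbol in RefSeq (assembly GRCz12tu), which was used for names, gene order and the sizes of the sets matched by symbol. Subunits were assigned by symbol. In full were described members in at least 6 tables, members with both directions and paralogs. Counts cover all members, and the single values of 3 members are not reported here. Assembly, initiation, elongation, signal recognition particle, p53 and cell type lists were matched by symbol, in part by its start alone. Members and lists were chosen with earlier results of these data known, and no test was run. The share of all background genes listed in any table was not counted, so totals of lists and pathways over the tables are descriptions alone. Alternatives were symbols in any term, 1 entry per symbol, members in at least 2 tables, directions from Reactome, and each table left out. Python 3.11.15, numpy 2.4.6, scipy 1.17.1 and matplotlib 3.10.9 were used.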

Additional observations from a re-analysis of the deposited data

How the results depend on the processing

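The number of members, their upregulated and downregulated counts per compound and the entries by subunit, 23 counts in all, stayed within 1.5 times their value with ribosomal protein symbols of any pathway (39 genes in place of 37), with 1 entry per symbol, and with members of at least 2 tables (27 genes). Each member has its own symbol, so 1 entry per symbol gave the same set and was no separate check. The set from any pathway could only add genes to the members, and that of at least 2 tables could only drop genes. With directions read from Reactome, which holds 30 of the 37 members, 21 of the 23 counts stayed within 1.5 times. A gene has 1 direction per table in all pathways, so this step could only drop members and could change no direction. By this construction, the upregulated members of impurity S went to 5 in place of 9, and the downregulated entries of the mitochondrial large subunit to 0 in place of 7, since *mrpl11* has no Reactome term. Leaving out each table in turn kept all 56 recomputed counts within 1.5 times, with 32 to 37 members left and the lowest number without azithromycin. Such a step takes 1 of 8 tables from a total, so a small change was largely fixed in advance. The counts per compound were not recomputed in these steps. A search of promoters and proteins was planned and not run, since no sequence was used here. No paired analysis was possible because each condition has 1 library. No value has an error of replicates or a known depth.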

Other observations

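A pair of further KEGG pathways of the translation machinery was read after the values above were seen. Their numbers of listed genes have no share of all background genes beside them, so nothing is read from these numbers. In the RNA polymerase pathway, 4 of 26 background genes were listed, with 5 upregulated and 12 downregulated entries. All 12 downregulated entries came from *polr1a* and *polr1e*, of RNA polymerase I. The upregulated entries were those of *polr2c*, of RNA polymerase II, for azithromycin and impurities F, J and Q, and of *polr3e*, of RNA polymerase III, for impurity I. In the aminoacyl-tRNA synthesis pathway, 2 of 33 background genes were listed, with *aars*, an alanyl-tRNA synthetase, downregulated for impurities J and L and *vars2*, a valyl-tRNA synthetase, downregulated for impurity L.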
